A study of Mus musculus with 10 samples.

Results

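The amount of melanoma transcript differed widely between libraries made from CD31-positive cells of B16F10 tumours, and the 10 libraries were compared by that amount. The libraries were chosen by a measured value: one was called melanoma-rich when its FPKM of Dct, the dopachrome tautomerase of melanin synthesis, was 60 or more. By this rule 4 of 10 libraries were melanoma-rich (wild-type 1, 2 and 3 and Shb-inactivated 4) and the other 6 were melanoma-poor (wild-type 4 and Shb-inactivated 1, 2, 3, 5 and 6). FPKM is a fragment number scaled to transcript length and to the mapped total of the library. The threshold fell within a continuous range. Just inside it was wild-type 2 at 68.96 FPKM and just outside it was Shb-inactivated 2 at 49.03 FPKM, a 1.41-fold step, whereas Dct spanned 6.08-fold within the rich libraries and 10.8-fold within the poor ones. Because a measured gene set the classes, every rich-against-poor value below is a description and carries no p-value.

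B16F10 is a pigmented mouse melanoma line, here grown as tumours in adult mice. The 4 wild-type libraries came from Cdh5-CreERt2 mice, and the 6 Shb-inactivated libraries from Shbflox/flox/Cdh5-CreERt2 mice, so both groups carry the inducible Cre recombinase under the endothelial Cdh5 promoter. The Shb protein is an adaptor in receptor tyrosine kinase signalling, and the Cre promoter directs its loss to endothelium. The labels give the floxed allele to the mice and not to the B16F10 cells. The labels give neither the inducing treatment nor the sex of the mice, and they name tumours as the tissue but tumours and lungs as the source. CD31-positive cells were taken by magnetic sorting after CD11b-positive cells had been depleted. In such bulk samples, fewer cells of a type and less RNA per cell cannot be told apart.

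Melanocytes and pigmented melanoma cells make melanin inside melanosomes, organelles of the endosomal lineage. Tyrosinase (Tyr) starts the pathway, and Dct and Tyrp1 act on later intermediates. Pmel forms the fibrils on which the pigment is laid down, and ion channels, transporters and Rab proteins mature and move the organelle. The transcription factor Mitf is the main activator of these genes and is known to bind a sequence called the M-box in their promoters. Endothelial cells do not make melanin.

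The promoters of the 3 enzyme genes are shown because Dct set the classes, Tyrp1 and Tyr separated them, and all 3 share the M-box core TCATGTGCT, given in capitals. Each run is the 250 bases before the RefSeq transcription start on GRCm38.p6, read on the gene's strand. The Dct run is chr14:118052247-118052496 (minus strand), that of Tyrp1 is chr4:80833963-80834212 (plus strand) and that of Tyr is chr7:87493513-87493762 (minus strand).
Dct: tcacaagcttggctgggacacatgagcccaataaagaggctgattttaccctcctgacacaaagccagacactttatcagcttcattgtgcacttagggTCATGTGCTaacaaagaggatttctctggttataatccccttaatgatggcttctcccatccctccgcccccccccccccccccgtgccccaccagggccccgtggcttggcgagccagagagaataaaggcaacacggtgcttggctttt
Tyrp1: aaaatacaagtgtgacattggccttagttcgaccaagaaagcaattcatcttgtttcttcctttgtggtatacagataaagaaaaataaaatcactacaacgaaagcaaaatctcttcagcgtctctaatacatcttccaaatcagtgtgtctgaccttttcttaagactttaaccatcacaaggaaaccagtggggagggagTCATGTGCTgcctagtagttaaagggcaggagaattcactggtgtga
Tyr: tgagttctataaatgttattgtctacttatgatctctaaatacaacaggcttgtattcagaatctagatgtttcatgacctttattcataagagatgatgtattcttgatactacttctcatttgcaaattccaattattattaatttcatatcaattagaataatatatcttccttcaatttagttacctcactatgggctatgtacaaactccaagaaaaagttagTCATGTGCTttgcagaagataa
The core ended 142 bases before the RefSeq start in Dct, 38 in Tyrp1 and 13 in Tyr. The gene start of Tyrp1 in GENCODE, 80834123, lies within the printed run and ahead of the core. Its distance therefore holds for the RefSeq start alone. In windows from 250 bases before to 50 after the start, searched on both strands, TCATGTGCT was found in 0.408% of all 32851 RefSeq windows and in 0.155% of the 9037 tested genes that had a window. It was found in 5 of 52 genes (9.62%) that had a window and whose rich and poor values did not overlap with rich higher. These 5 were Dct, Tyrp1, Tyr, Ppargc1a and Dclk1. Dct is among the 52 by construction, since it set the classes. The core is given above as the run that Dct, Tyrp1 and Tyr share, so those 3 hits were known beforehand. The 9.62% is therefore a description and no measure of enrichment. The same 3 genes are also among the CATGTG matches that follow. The shorter CATGTG, which lies within TCATGTGCT, was found in 14.2% of all windows and in 10.3% of the 9037 tested genes with a window. It was found in 13 of those 52 genes (25.0%) and 10 of the 33 melanoma list genes with a window (30.3%). These are matches of letters and not measured binding. Pmel and Mlana had no entry in the promoter table.

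Shb itself was checked first. It was 5.44, 3.27, 2.78 and 3.24 FPKM in wild-type 1 to 4 and between 0.37 and 1.44 in the 6 Shb-inactivated libraries, so the genotype groups did not overlap. Endothelial transcripts were abundant in each library: Pecam1, the gene of CD31, ran from 569.33 to 1236.68 FPKM, and none of the 30 pan-endothelial markers was at 0 in any library. Some libraries stood apart in ways that crossed the classes, and the sets below were defined from these values. Itgam, the gene of the depleted CD11b, was 109.11, 29.31 and 35.88 FPKM in wild-type 3, Shb-inactivated 3 and Shb-inactivated 4 and at most 5.85 in the other 7, and these 3 are called the myeloid-rich libraries. The mean log2 level of 41 small nucleolar RNAs was 1.74, 1.41 and 1.69 in wild-type 1, Shb-inactivated 1 and Shb-inactivated 2 and 2.49 to 4.20 in the others. The 2 libraries in which the Y-linked genes summed to under 1 FPKM were wild-type 1 (Xist 0.13) and Shb-inactivated 2 (Xist 32.87), against 94.21 to 166.4 in the rest. Summed FPKM ran from 477329 to 576687 per library, and the read depth is unknown.

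Dct, which alone set the classes, and the markers Tyrp1 and Pmel put the same 4 libraries on top. Dct (chromosome 14, 118012790 to 118052244, GRCm38) was 418.95, 68.96 and 106.19 FPKM in wild-type 1, 2 and 3 and 131.83 in Shb-inactivated 4. In the poor libraries its lowest, median and highest values were 4.55, 27.6 and 49.03 FPKM. Tyrp1 (chromosome 4, 80834123 to 80851719), which acts late in eumelanin synthesis, was 336.81, 59.92, 63.59 and 80.88 FPKM in the same 4 libraries and 3.31, 22.6 and 35.41 at the lowest, median and highest of the poor ones. Pmel (chromosome 10, 128704195 to 128720238) was 175.32, 24.24, 64.16 and 79.86 FPKM against 1.31, 10.5 and 22.90. Wild-type 1 was by far the highest library for all 3, Shb-inactivated 5 and 1 were the lowest, and for Pmel the classes were parted by a gap of just 24.24 against 22.90 FPKM. Differences of mean log2(FPKM + 1), rich minus poor, were 2.88 for Dct, 2.68 for Tyrp1 and 3.03 for Pmel. The 3 transcripts together made up 0.00164% to 0.182% of the summed FPKM.

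**Figure D1:**
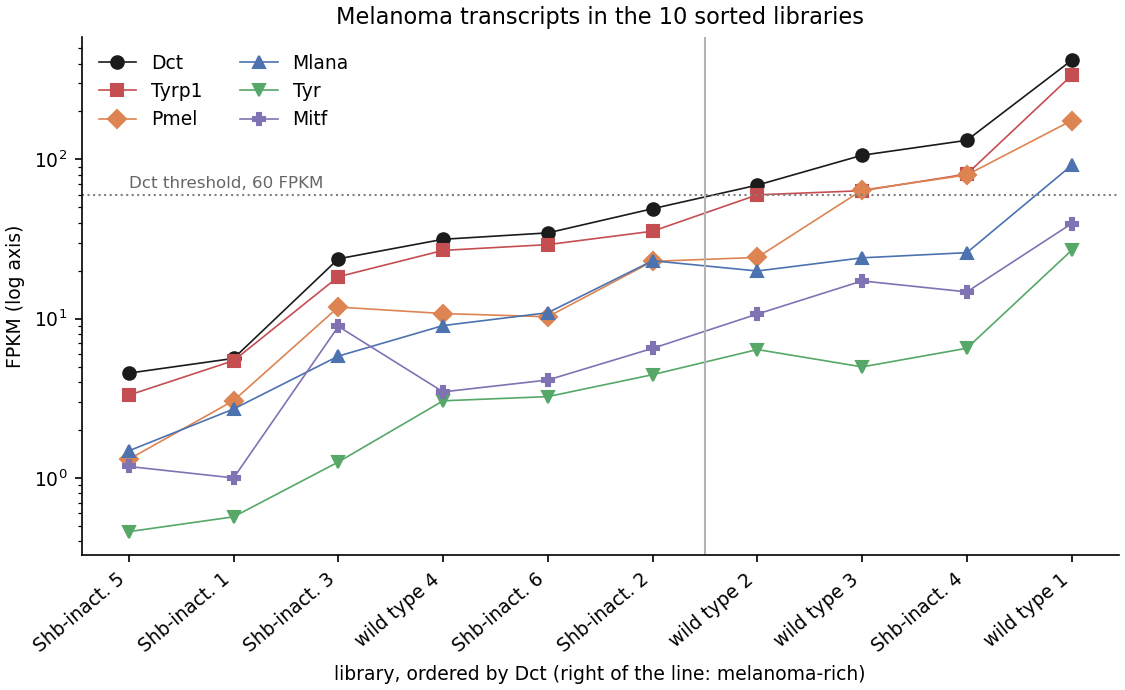
FPKM on a log axis of 6 melanocyte genes in each of the 10 libraries, ordered by Dct from left to right, with the dotted line at the Dct threshold of 60 FPKM and the vertical line between the poor and rich libraries. Dct climbs from 4.55 to 418.95 FPKM without a wide step at the threshold, Tyrp1 keeps the same order, and Tyr leaves that order at the myeloid-rich wild-type 3 and Mitf most clearly at the myeloid-rich Shb-inactivated 3.

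Among the enzymes, Tyr (chromosome 7, 87424771 to 87493512) was the least abundant. It was 26.86, 6.40 and 4.98 FPKM in wild-type 1, 2 and 3 and 6.52 in Shb-inactivated 4, against 0.46, 2.16 and 4.45 at the lowest, median and highest of the poor libraries. The classes did not overlap, and the difference was 1.81 on the log2(FPKM + 1) scale. Tyr and Tyrp1 thus separated the classes that Dct had set, and the list median, Dct included, was 2.68. The same median was 2.08 when the 3 libraries with little small RNA were left out and 3.22 without the 3 myeloid-rich ones.

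The enzymes kept nearly fixed proportions while their amounts changed. Tyrp1 spanned 101.8-fold over the 10 libraries, yet the ratio of Tyrp1 to Dct FPKM stayed between 0.599 (wild-type 3) and 0.968 (Shb-inactivated 1), a 1.62-fold span. The ratio of Pmel to Dct ran from 0.288 (Shb-inactivated 5) to 0.606 (Shb-inactivated 4), 2.104-fold, while Pmel itself spanned 133.8-fold. The ratio of Tyr to Dct was 0.0469, 0.053 and 0.0495 in the 3 myeloid-rich libraries (wild-type 3, Shb-inactivated 3 and 4) and 0.0641 to 0.101 in the other 7, so those sets did not overlap. Myeloid transcript was high where the Tyr share was low, and its part in that ratio was not tested. Against Dct on log axes, where a slope of 1 is a constant ratio, the slope was 0.96 for Tyrp1, 1.06 for Pmel and 0.86 for Tyr.

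**Figure D2:**
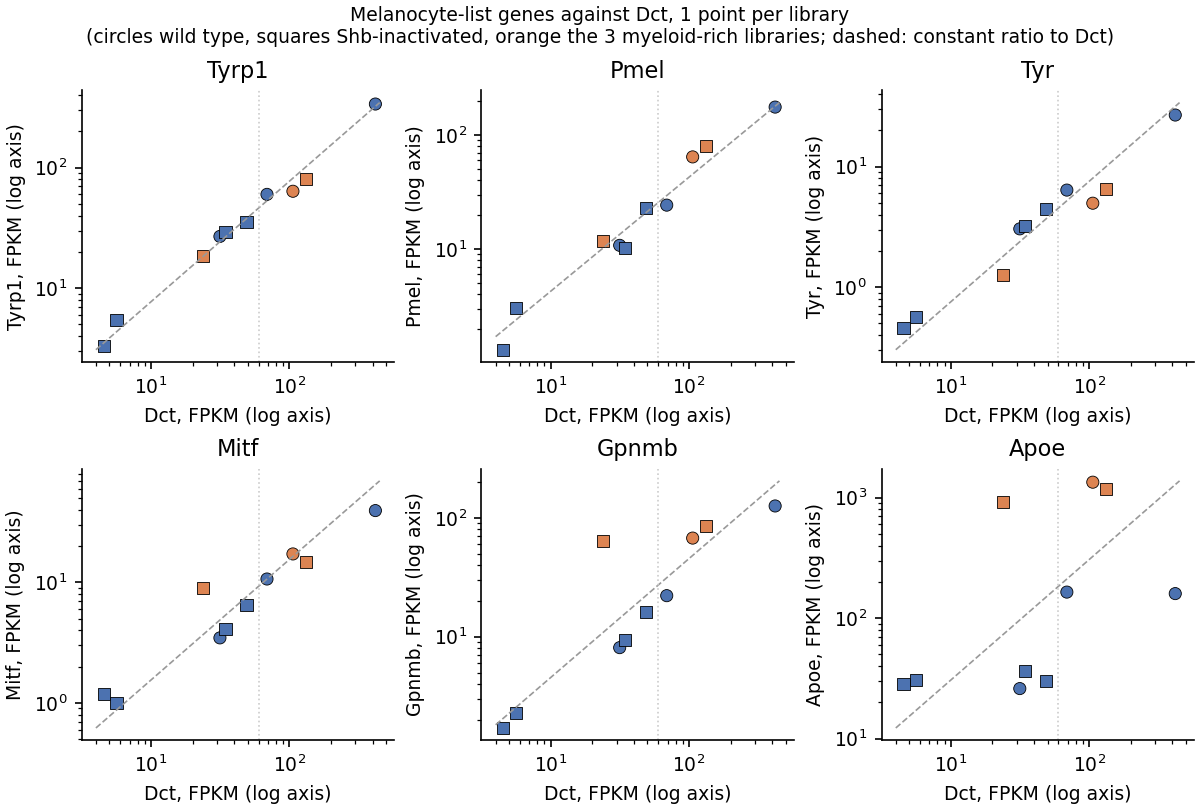
FPKM of 6 melanocyte-list genes against Dct FPKM, both on log axes, with 1 point per library, circles for wild type, squares for Shb-inactivated, orange for the 3 myeloid-rich libraries and a dashed line for a constant ratio to Dct. Tyrp1, Pmel and Tyr follow the line, whereas the orange points of Gpnmb at 64.25 to 85.69 FPKM and of Apoe at 917.11 to 1342.59 FPKM do not fall with Dct.

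Genes of melanosome structure and transport were higher in the rich libraries as a group. All 17 tested members of this list had a difference above 0, with a median of 1.67, and in 9 of 17 the classes did not overlap. Over all 12805 tested genes the median difference was -0.02, and 0.625% had all 4 rich values above all 6 poor ones. The melanosomal ion channel gene Trpm1 was 39.97, 9.91, 11.62 and 11.90 FPKM in wild-type 1, 2 and 3 and Shb-inactivated 4, against 0.21, 4.08 and 6.46 at the lowest, median and highest of the poor libraries. Slc45a2 (deposited as Slc45a2.1), a transporter that affects melanosomal pH, was 26.18, 5.09, 5.11 and 6.72 FPKM against 0.22, 1.67 and 4.44. Its order over the 10 libraries was that of Dct. The ion exchanger gene Slc24a5 was 19.29, 3.33, 4.01 and 5.29 FPKM against 0.21, 1.25 and 2.35. All 3 were highest in wild-type 1 and had their lowest rich value in wild-type 2.

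Other members of the organelle split by how closely they kept to Dct. Oca2, a channel that affects melanosomal pH, Rab38, which carries the enzymes to the organelle, Tspan10 and Mreg also separated the classes, with differences of 1.46, 1.67, 1.81 and 1.29. Rab27a, the small GTPase that tethers mature melanosomes, separated them by less, at 6.44 to 25.06 FPKM against 3.46 to 5.79. Mlph, the linker between Rab27a and myosin, and Mlana, a melanosomal membrane protein that acts with Pmel, overlapped through a single pair of libraries. Mlana was 19.92 FPKM in wild-type 2 and 23.11 in Shb-inactivated 2, and Mlph was 2.71 and 3.17. Of the 38 tested genes on the 4 melanoma lists, 10 were at least as high in Shb-inactivated 2 as in wild-type 2, the 2 libraries on either side of the threshold. Bace2 (difference 0.04) and Gpr143 (0.49) hardly followed the classes.

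Among transcription factors and receptors of the lineage, some followed Dct and others did not. Mitf (chromosome 6, 97807052 to 98021349) was 39.53, 10.69, 17.26 and 14.73 FPKM in the rich libraries and 1.00, 3.79 and 8.94 at the lowest, median and highest of the poor ones. Its highest poor value came from Shb-inactivated 3, a myeloid-rich library, where the ratio of Mitf to Dct was 0.376, the highest of the 10. Pax3, a neural crest factor upstream of Mitf, was 16.71, 4.08, 2.65 and 3.26 FPKM against 0.22, 1.10 and 2.50, and the classes did not overlap. Sox10, the other upstream factor, was 17.25 FPKM in wild-type 1 but at most 2.16 in the other rich libraries, below the 2.94 of Shb-inactivated 2. Of the other transcription factors on the list, Irf4 (r with Dct 0.49, difference 0.27), Lef1 (0.43, 0.17), Tbx2 (0.11, -0.12) and Snai2 (-0.36, -0.43) overlapped between the classes. The receptor gene Erbb3 overlapped in the same way, at 1.08 in wild-type 2 and 1.39 in Shb-inactivated 2.

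Kit and Ednrb, receptors that melanoblasts need but that other cells also make, had lower means in the rich libraries. Ednrb was 205.79, 383.39, 377.28 and 469.61 FPKM against 337.94, 414 and 664.92, and Kit was 25.63, 35.17, 20.50 and 33.95 FPKM against 27.09, 33.4 and 73.78. The classes overlapped for both, with differences of -0.36 and -0.43. Met, the receptor of hepatocyte growth factor, was 137.80 FPKM in wild-type 1 and 12.78 to 29.74 in the other 9. Of the 11 tested regulators and receptors, 2 separated the classes (18.2%), with the rich values higher, beside 0.625% of all tested genes. The difference was above 0 in 7, and the median was 0.27. This median changed sign with the libraries used: it was -0.004 without wild-type 1 and 0.65 without the myeloid-rich libraries.

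Of 7 tested genes on the list of other melanoma and neural crest genes, 3 separated the classes (42.9%), beside 0.625% of all tested genes. The difference was above 0 in 6, and the median was 1.61. Ptgds, a prostaglandin D synthase, was 22.32, 5.13, 6.26 and 10.69 FPKM in the rich libraries against 0.55, 2.60 and 4.41 in the poor ones. Cdh19, a cadherin of the neural crest lineage, was 21.20, 6.12, 4.15 and 4.13 FPKM against 0.42, 2.00 and 3.69. S100b, a calcium-binding melanoma marker, was 3.62, 1.38, 1.39 and 1.46 FPKM against 0.32, 0.66 and 0.90. Nes, an intermediate filament gene that dividing endothelium also expresses, went the other way, with 63.00 to 155.45 FPKM against 99.21 to 172.45 and a difference of -0.57. Another 9 melanoma list genes, Mc1r, Mia and Tfap2a among them, did not pass the filter of 1 FPKM in 4 libraries and reached at most 5.05 FPKM in any library.

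Counted together, 33 of the 38 tested melanoma list genes had a difference above 0, and 17 of 38 (44.7%) separated the classes, beside 0.625% of all tested genes. Dct is among the 17, and among the 80 genes behind that share, by construction, since it set the classes. These members were tested because they reached 1 FPKM in 4 libraries, the size of the rich class, so their count is given as a description. Without the 3 myeloid-rich libraries 24 of 38 separated the remaining 2 rich from 5 poor libraries, beside 6.44% of all genes. When the 3 libraries with little small RNA were left out the count was 22 of 38, beside 4.05%, and without wild-type 1 it was 18 of 38, beside 1.05%.

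**Figure D3:**
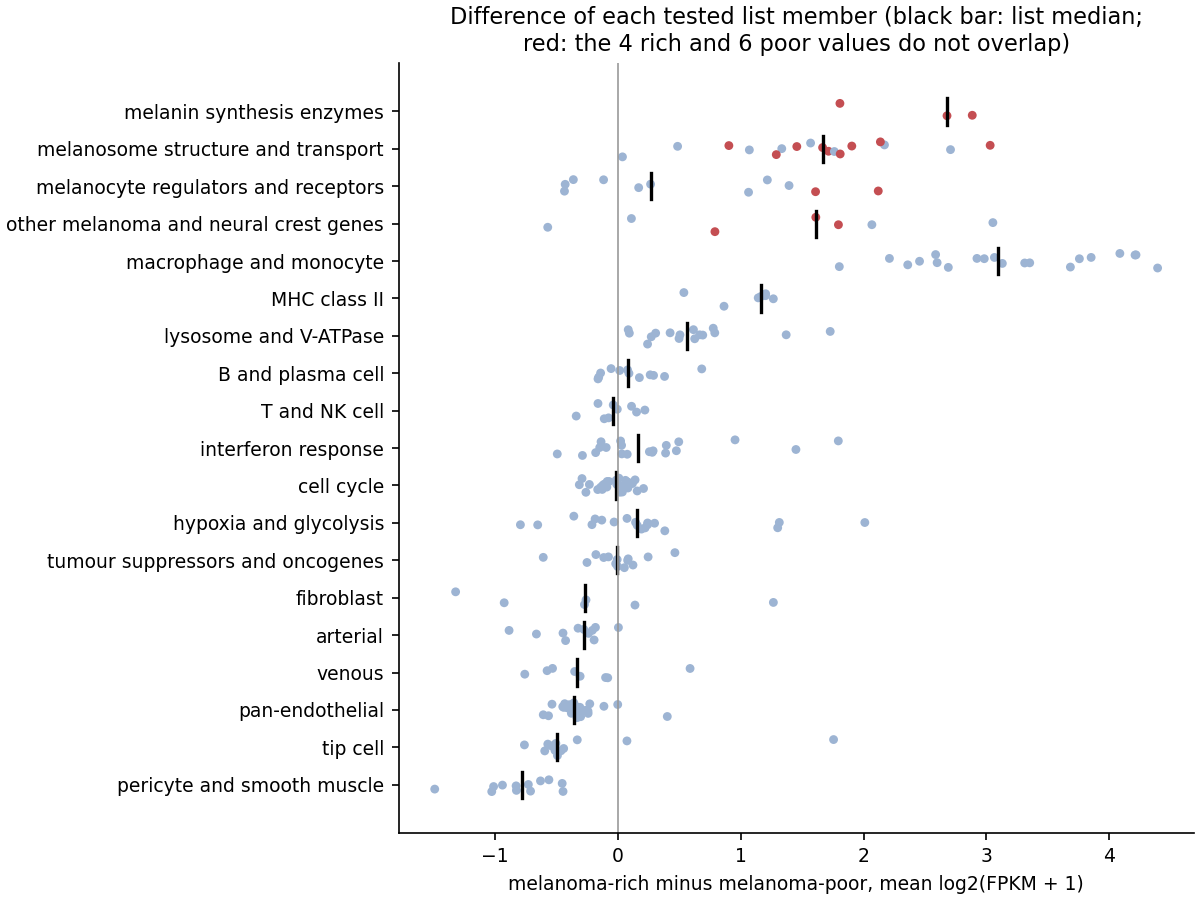
Difference of mean log2(FPKM + 1), melanoma-rich minus melanoma-poor, for each tested member of the lists named on the axis, with a black bar at the list median and red points where the 4 rich and 6 poor values do not overlap. Red points occur in the 4 melanoma lists alone among those plotted, the macrophage list has a median of 3.10 and the pericyte list one of -0.78. The neutrophil list (median 3.18), with 2 tested members, is not plotted.

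Several genes on the melanoma lists are also expressed by macrophages, and these followed the myeloid-rich libraries. Apoe, a lipid carrier, was 1342.59, 917.11 and 1186.33 FPKM in wild-type 3, Shb-inactivated 3 and Shb-inactivated 4 and 25.99 to 164.33 in the other 7. Among those 7, the melanoma-rich wild-type 1 and 2 were at 159.66 and 164.33 FPKM, and the Apoe median of the poor class, Shb-inactivated 3 included, was 30.26. Rab32, which serves melanosomes and other lysosome-related organelles, was 19.40 to 27.48 FPKM in the 3 myeloid-rich libraries and 1.52 to 3.96 in the others. Slc7a11, the cystine transporter gene, ranged from 2.04 to 17.96 FPKM against 0.26 to 2.13, so these sets overlapped. Its median in the melanoma-rich class was 2.39 FPKM and its highest melanoma-poor value was 2.04, so the 17.96 was a single high library. Gpnmb, a glycoprotein of melanosomes and macrophages, was high in both settings, with 64.25 to 85.69 FPKM in the myeloid-rich libraries, 125.76 in wild-type 1 and 1.71 to 22.15 in the remaining 6. Myo5a, the melanosome motor, showed the same layout at 75.35 to 80.35, 82.78 and 23.58 to 42.94 FPKM. Leaving out the myeloid-rich libraries kept the melanosome list median positive, at 2.05.

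Macrophage and monocyte markers were higher in the rich class too, though no member separated the classes. All 20 tested members had a difference above 0 with a median of 3.10, and 2 of the 3 myeloid-rich libraries were melanoma-rich. The summed level of all 21 listed markers was 315.29, 720.98, 7823.07 and 4844.76 FPKM in wild-type 1, 2 and 3 and Shb-inactivated 4. It was 59.30 to 85.72 FPKM in 5 poor libraries and 5513.77 in Shb-inactivated 3. No listed marker was at 0 in any library. Without the 3 myeloid-rich libraries, all 20 tested members were still higher in the 2 remaining rich libraries, with a median of 2.22, and 19 of 20 did not overlap with the 5 poor ones, beside 6.44% of all genes. Their part in the class difference of other genes was not tested. Of 16 lysosome and V-ATPase genes, all had a difference above 0 (median 0.56), but 10 of 16 did so without the myeloid-rich libraries (median 0.065). MHC class II genes, with 7 of 7 above 0 and a median of 1.16, had a median of 0.54 without those libraries.

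**Figure D4:**
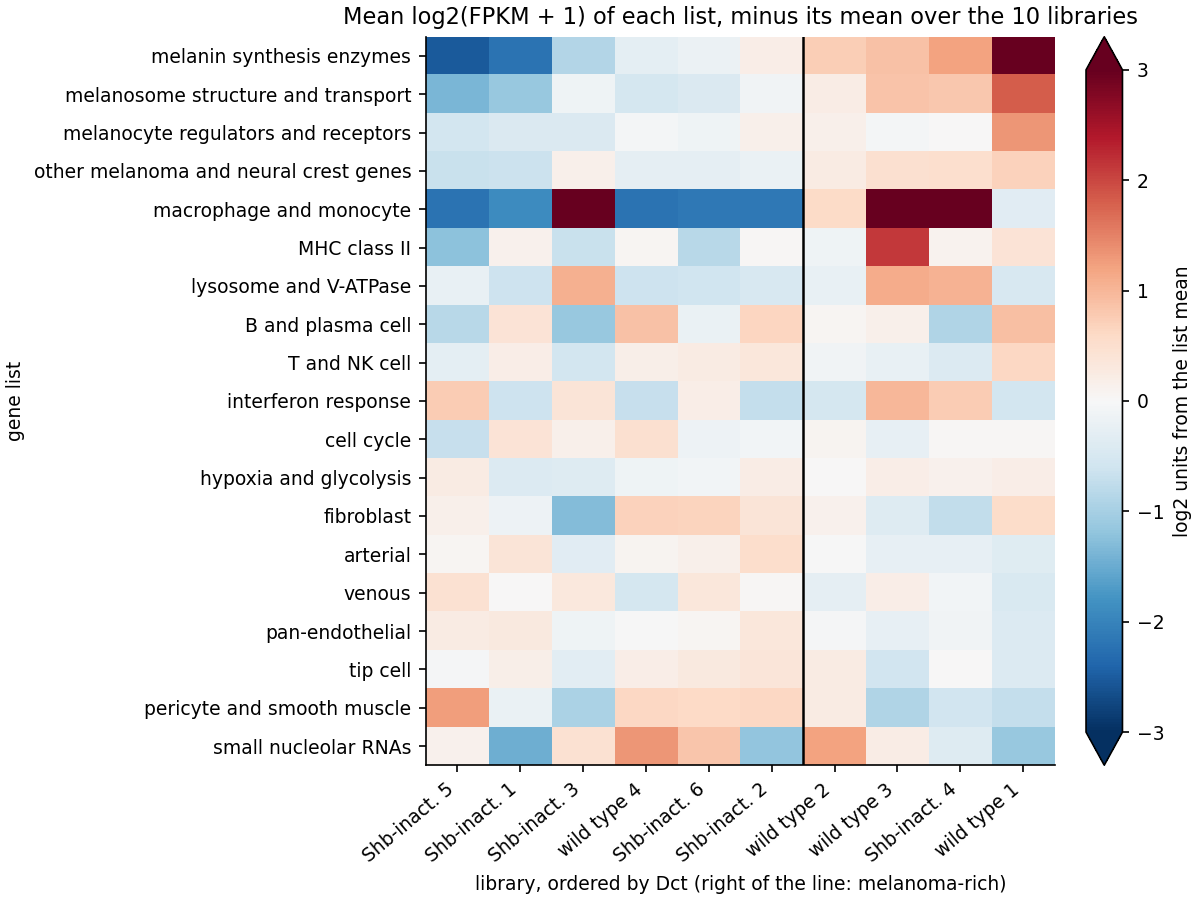
Mean log2(FPKM + 1) of each gene list in each library, minus the list's mean over the 10 libraries and limited to 3 in either direction, with libraries ordered by Dct and the vertical line at the class border. All 4 melanoma lists are highest in wild-type 1, but the list of regulators and receptors shows no gradient. Before the list mean is taken off, it is 3.74 in wild-type 1. Its level in the rich wild-type 3 (2.36) and Shb-inactivated 4 (2.43) is below that of the poor Shb-inactivated 2 (2.58). The macrophage list is high in Shb-inactivated 3, wild-type 3 and Shb-inactivated 4, on both sides of the border.

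Beyond the lists, 80 of 12805 genes (0.625%) had all 4 rich values above the 6 poor ones, and 53 (0.414%) had all of them below. Of the 80, 17 were on a melanoma list, 63 were on no list, and 0 were on an immune or an endothelial list. Their differences ran from 0.17 to 3.03 with a median of 1.14, whereas the 53 lower genes ran from -0.15 to -0.67 with a median of -0.30, so none of the latter reached a difference of 1. The balance of the counts depended on the scaling. The higher genes were 60.2% of both kinds as deposited, 39.1% after TPM scaling (59 higher, 92 lower) and 26.7% after quantile normalization (52 higher, 143 lower). Leaving out a single library gave 92 to 485 higher genes and moved the count by over 1.5 times without wild-type 1 (134), wild-type 2 (360) or Shb-inactivated 2 (182), 3 (485), 4 (132) or 6 (131). The lower count ranged from 62 to 364 and moved by over 1.5 times without wild-type 2 (364), 3 (81) or 4 (96) or Shb-inactivated 1 (83), 2 (104), 3 (201), 4 (115) or 6 (91).

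A difference of at least 1 was found for 521 genes higher in the rich libraries (4.07%) and 39 lower (0.305%). The classes failed to overlap for 45 of the 521, beside 0.625% of all tested genes with the rich values higher. On a melanoma list were 26 of the 521, out of 38 tested melanoma list genes, and 29 were on an immune list. The share of immune list genes among all tested genes was not counted, so the 29 is a description. Without the myeloid-rich libraries 317 of the 521 differed by at least 1, and 27 of the 39. Both sets were chosen by the difference over all libraries, the remaining ones included, so this persistence is partly by construction. The share of all tested genes at that difference without those libraries was not counted.

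The most abundant of the separating genes on no list were 2 that the files name by clone. RP24-448C16.5 was 1270.58, 250.33, 221.57 and 196.16 FPKM in wild-type 1, 2 and 3 and Shb-inactivated 4, against 28.31, 81.1 and 185.96 at the lowest, median and highest of the poor libraries. RP24-328P2.8 was 1849.38, 896.13, 797.49 and 632.58 FPKM against 152.49, 274 and 480.98. Both exceeded Dct in every library. Their sequence was not analysed here.

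Of the other genes on no list that were named, Ppargc1a had the largest difference, 1.94. This coactivator of mitochondrial genes, a known Mitf target in melanocytes, was 26.43, 5.21, 6.29 and 6.41 FPKM against 0.59, 1.78 and 2.92. Unc5c, a netrin receptor, was 20.16, 4.44, 5.24 and 6.53 FPKM against 0.24, 1.47 and 4.23, in the same library order as Dct. Epha3, an ephrin receptor, was 12.35, 2.55, 4.20 and 5.38 FPKM against 0.15, 0.93 and 1.78. Ptprs, a receptor tyrosine phosphatase, Dmxl2, a regulator of the vacuolar proton pump, Dock3, an exchange factor for Rac, and Ankfn1 also separated the classes, with differences of 1.85, 1.83, 1.91 and 1.83. All of these were highest in wild-type 1, and wild-type 2 or wild-type 3 was the lowest of the rich libraries.

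Pearson r between log2(FPKM + 1) and log2(Dct + 1) was 0.9 or more for 62 genes (0.484%), of which 17 were on a melanoma list, 44 on no list and 36 also separated the classes. These counts include Dct itself, with an r of 1. The libraries are shared by all genes, so r is a description. Tyrp1 had r = 0.99 (rho 1.00), Ptgds 0.99 (0.96), Trpm1 0.99 (0.98), Rab38 0.99 (0.98), Pmel 0.98 (0.95) and Mlana 0.98 (0.99), and all 6 stayed at 0.95 or above without the 2 libraries farthest from the median Dct. Of genes on no list, Unc5c had r = 0.98, Epha3 0.97, Hmga2, an architectural chromatin gene, 0.97, Dmxl2 0.97, Gjb2, the connexin 26 gene, 0.96 and Gsta1, a glutathione transferase, 0.96. Hk2, a hexokinase gene on the hypoxia and glycolysis list that is named here after its value was seen, was the one member of a list outside the melanoma lists with r of at least 0.9. It was 50.93, 4.98, 14.99 and 14.91 FPKM in the rich libraries and 1.22 to 8.70 in the poor ones, with r = 0.91 that became 0.81 without those 2 libraries. Among 12568 tested genes above 0 in every library, 79 had a slope on Dct of at least 0.8 on log axes. Of these, 20 were melanoma list genes, Dct itself included, and 8 were immune list genes. The share of immune list genes among the 12568 was not counted, so the 8 is a description.

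Differences of the genes lower in the rich libraries were small. Slc5a11, an inositol transporter, had the largest difference (-0.67), at 0.46, 0.36, 0.43 and 0.37 FPKM against 0.63, 1.26 and 2.40 at the lowest, median and highest of the poor libraries. Hoxb2, a homeobox gene, was 2.95, 6.19, 3.33 and 5.70 FPKM against 6.20, 6.99 and 8.58. Wwtr1, the Hippo pathway coactivator TAZ, was 99.63, 150.13, 110.66 and 155.59 FPKM against 158.59, 162 and 209.35. For Hoxb2 and Wwtr1 the gap between the classes was smaller than the range within either. Endou, Nxpe2, Sec24d, a coat protein gene of secretory vesicles, Ppp1r2, an inhibitor of protein phosphatase 1, and Tlr3, a receptor of double-stranded RNA, had differences of -0.60, -0.53, -0.49, -0.47 and -0.41. Pearson r with Dct was -0.9 or lower for 8 genes (0.0625%), led by Mansc1 (-0.93), Ywhab (-0.92), a 14-3-3 protein gene, Crtap (-0.92) and Upf3a (-0.91). Their log2 differences were just -0.39, -0.24, -0.22 and -0.05. This count was 143 without Shb-inactivated 1, and 14, 17, 16, 18 and 17 without wild-type 4 or Shb-inactivated 2, 3, 4 or 6.

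Endothelial transcripts were lower in the rich libraries by a small amount that most markers shared. Of 30 pan-endothelial genes 29 had a difference below 0, with a median of -0.35, and 0 separated the classes. Pecam1 was 569.33, 863.98, 745.14 and 873.36 FPKM in the rich libraries against 858.38, 913 and 1236.68. Cdh5, the junctional cadherin gene whose promoter drives the Cre, was 374.07, 428.97, 384.95 and 433.84 FPKM against 418.85, 533 and 615.55. The summed level of the 30 markers was 5245.82 to 6969.07 FPKM in the rich libraries and 6519.68 to 8928.72 in the poor ones, with wild-type 1 lowest. Log2 Dct and the mean log2 level of the 30 markers had r = -0.78 and rho = -0.62, and r was -0.58 without wild-type 1 and Shb-inactivated 5. The list median was -0.20 when the libraries with little small RNA were left out.

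Genes of tip cells, the leading cells of sprouts, had a median of -0.49 with 11 of 13 below 0. Igfbp3, one of the other 2, was 2058.91 to 4235.04 FPKM in 9 libraries but listed at 0 in Shb-inactivated 5, which sets its difference. Arterial genes had a median of -0.28 and venous genes -0.33. Pericyte and smooth muscle genes were lower in 12 of 12, with a median of -0.78 and no separation of the classes. Rgs5, a pericyte marker, was 14.58, 85.82, 27.99 and 34.76 FPKM against 26.47, 118 and 277.15. The summed pericyte level was 119.87 to 270.21 FPKM in the rich libraries and 145.63 to 761.51 in the poor ones, and Shb-inactivated 3, myeloid-rich, was the lowest of the latter. Cell cycle genes had a median of -0.01 and T and NK cell genes of -0.04, both near that of all genes, but both depended on the libraries used. The cell cycle median was -0.55 within wild type and 0.12 within the Shb-inactivated group, each with 1 library on one side. That of T and NK cell genes was -0.28 without wild-type 1 and 0.24 without the myeloid-rich libraries.

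The genotype, which the rule did not use, was then set against the classes. Of the wild-type libraries 3 of 4 were melanoma-rich, against 1 of 6 Shb-inactivated ones (Fisher's exact test, two-sided, p = 0.19). Mean Dct was 156 ± 178 FPKM (SD, n = 4) in wild type and 41.6 ± 47.4 (SD, n = 6) in the Shb-inactivated group. The difference of mean log2(FPKM + 1), Shb-inactivated minus wild type, was -2.04 for Dct (exact permutation test over 210 splits, two-sided, p = 0.1), -2.03 for Tyrp1 (p = 0.0857) and -1.87 for Pmel (p = 0.133), so these 3 differences were not past the threshold of 0.05. In limma across all genes their adjusted p was 0.989 each. Leaving out Shb-inactivated 4, the one rich library of its group, moved Dct to -2.53 (exact permutation p = 0.0476) and Tyrp1 to -2.45 (exact permutation p = 0.0397). That library was the highest of its group in both genes, so these p-values follow from a choice made on the outcome and support no difference. Leaving out each other library gave exact permutation p-values of 0.0714 to 0.25 for Dct, and the Dct difference was -1.35 without wild-type 1 and -1.14 when the libraries with little small RNA were left out.

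With limma on log2(FPKM + 1), 0 of 12805 genes (0%) differed between genotypes at an adjusted p under 0.05, and 442 had an unadjusted p under 0.05. With log2(Dct + 1) of each library added to the model, 0 of 12804 (0%) did, and 154 had an unadjusted p under 0.05. Both counts are a smaller share of the tested genes than the 0.05 expected with no difference. Shb itself differed by -1.27 (SE 0.21) in the first model and -0.97 (SE 0.19) in the second, and had the smallest p in both (limma adjusted p 0.989 and 1; exact permutation p = 0.00476 without Dct, the smallest that 210 splits allow). The estimated genotype differences of the melanoma genes differed between the models. Their median was -1.03 over 38 genes without Dct in the model and 0.001 over 37 genes with it, beside 0.006 and 0.005 for all genes. Of the 38, 17 had r of at least 0.9 with log2(Dct + 1), Dct itself included. Adding Dct takes the estimates of such genes towards 0 largely by construction, so this fall is a description and no result about the genotype. Tyrp1 went from -2.03 to -0.14 (SE 0.16), Pmel from -1.87 to 0.24 (SE 0.27) and Mitf from -1.36 to 0.06 (SE 0.32). The median of the 30 pan-endothelial genes went from 0.32 to 0.14, that of tip cell genes from 0.35 to 0.03, and that of pericyte genes from 0.25 to -0.22. Macrophage genes went from -0.75 to 0.73. None of these genes was past the threshold in either model, so the medians describe estimates whose sign was not established.

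**Figure D5:**
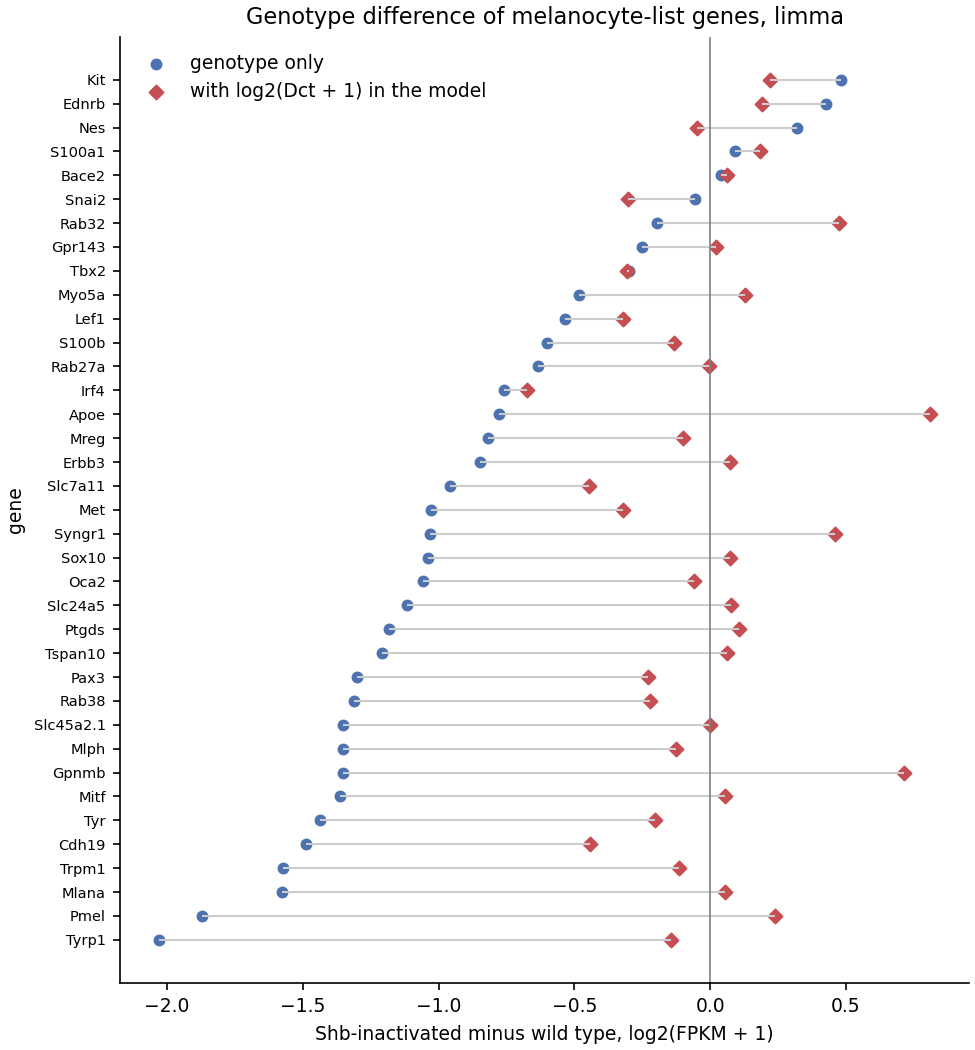
Genotype difference of 37 melanoma list genes in limma (log2(FPKM + 1), Shb-inactivated less wild type), as blue circles for the model with genotype alone and red diamonds for the model with log2(Dct + 1) added. The diamonds have a median of 0.001 and Tyrp1 moves from -2.03 to -0.14, while Apoe, Gpnmb, Rab32 and Syngr1 pass to the right of 0. Genes that follow Dct closely move towards 0 largely by construction.

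The class difference could also be read within each genotype. In wild type, 3 rich libraries stood against wild-type 4 alone, and the melanosome list had a median of 1.70 with 17 of 17 above 0. In the Shb-inactivated group, replicate 4 alone stood against 5 poor libraries, with a median of 1.36 and 16 of 17 above 0. The pan-endothelial median was -0.27 within wild type and -0.29 within the Shb-inactivated group, and with genotype beside the class in the model it was -0.26. Each of these rests on a class of 1 library on one side.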

How the data were processed

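Gene expression was measured by total RNA sequencing of CD31-positive cells from B16F10 tumours of 4 wild-type and 6 Shb-inactivated mice. Per the labels' protocols, libraries were stranded and ribosomal RNA was removed. The authors deposited FPKM per gene symbol, made with TopHat2 2.1.1 and Cufflinks 2.2.1 on GRCm38 per the submitters' processing notes. Neither the annotation nor the strand setting of the counting is given in the sources used here, so overlapping and antisense genes cannot be told apart. Each of the 10 deposited files held 28454 symbols with a comma as decimal mark. FPKM keeps no read totals, so depth and counting error are unknown, and exact zeros can be failed estimates. The series text counts as many mice as libraries in each group. Whether tumours were pooled, and the days of sorting, are not in the labels.

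Values were taken as log2(FPKM + 1), which understates changes of low genes. A gene was kept if 4 or more libraries had 1 FPKM or more, 12805 in all. The melanoma-rich and melanoma-poor libraries were compared by differences of mean log2 values and by whether values overlapped, and each gene was correlated with log2(Dct + 1), both without a test. Genotype was tested with limma 3.58.1 in R 4.3.3 (mean-variance trend, two-sided, Benjamini-Hochberg over all tested genes, threshold 0.05), with and without log2(Dct + 1), and single genes by exact permutation. The limma step was also run on simulated data. The outcome is not given here, so it says nothing about the power of the genotype test in these libraries. Same-numbered libraries of both genotypes correlated at 0.44, -0.32, 0.71 and -0.55 in their deviations from the group means, so replicate numbers were not treated as pairs.

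The members, the 29 gene lists and the tests were chosen with earlier results of these data known. Named were all melanoma list genes, the 15 non-overlapping genes per direction with the largest difference, the 15 highest and 10 lowest correlations with Dct (leaving out symbols that begin with Gm and a digit, Mir, Snor or Scarna or end in Rik), Shb, the 5 genes with the smallest genotype p, and the 2 most abundant members of other lists. Those given in the text are the ones its results turn on. For 4 list members the deposited symbol with a numeric suffix was used. Positions came from GENCODE vM21 (GRCm38), in which 26134 symbols were found, and promoter sequences from RefSeq (GRCm38.p6). Alternatives changed the pseudocount, filter, scaling, libraries, split, covariate and weights. Plots were drawn with matplotlib 3.10.9.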

Additional observations from a re-analysis of the deposited data

Results flagged for a closer look

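Within the labelled groups, 14 of 80 groups of values had a library that lay far from the others by Dixon's criterion. For independent groups of normal values chance alone would give about 1 of 20. Single genes were taken as FPKM without logs and the groups share libraries, so the 14 cannot be set against that rate. Among melanoma transcripts, Shb-inactivated 4 was the highest of its group for Dct at 131.83 FPKM (next 49.03) and for Pmel at 79.86 FPKM (next 22.90). Wild-type 1 was the highest of its group for Tyrp1 at 336.81 FPKM (next 63.59), for Tyr at 26.86 FPKM (next 6.40) and for the mean log2 level of melanocyte regulators and receptors at 3.74 (next 2.57).

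Among other cell types, wild-type 3 was the highest of its group for Itgam at 109.11 FPKM (next 5.85), for the mean log2 level of lymphatic genes at 2.92 (next 2.06) and for that of interferon response genes at 5.03 (next 3.49). Shb-inactivated 5 was the highest of its group for Pecam1 at 1236.68 FPKM (next 954.68). The mean log2 level of keratinocyte genes was highest in wild-type 4 at 0.13 (next 0.05) and in Shb-inactivated 6 at 0.40 (next 0.05), all low levels.

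Sex-linked genes also set libraries apart. Ddx3y, on the Y chromosome, was listed at 0.0 FPKM in wild-type 1 and at 52.05 or more in the other wild-type libraries. Xist was 0.13 FPKM in wild-type 1 (next 0.01) and 32.87 FPKM in Shb-inactivated 2 (next 0.01). The labels give no sex.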

How the results depend on the processing

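The median difference of the melanosome list stayed positive and that of the pan-endothelial list negative under all alternatives run. With each library left out in turn the former ranged from 1.26 to 1.83 and the latter from -0.41 to -0.30, and the former was 2.39 with a pseudocount of 0.1 and 0.89 with one of 5. Counts of separating genes moved far more, and smaller classes by their construction overlap less often. Higher genes, 80 as reported, were 325 with no filter, 28 with a mean of at least 5 FPKM, 52 after quantile normalization, 825 without the 3 myeloid-rich libraries, 519 without the 3 low in small RNAs, and 330 and 149 with the 3 or 5 libraries highest in Dct as rich. Leaving out each library gave 92 to 485. Lower genes, 53 as reported, were 92 with TPM scaling, 143 after quantile normalization, 585 without the myeloid-rich libraries, 393 without those low in small RNAs and 341 with the 3 libraries highest in Dct, and 62 to 364 with each library left out. The 4 libraries highest in Tyrp1 or in Pmel were the same 4 as by Dct.

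Genes with r of at least 0.9, 62 as reported, were 114 with no filter, 24 with a mean of at least 5 FPKM, 255 without the myeloid-rich libraries, 202 without those low in small RNAs, and 60 to 114 with each library left out, the highest without Shb-inactivated 1. Genes with r of -0.9 or lower, 8 as reported, were 17 with TPM scaling, 14 after quantile normalization, 79 without the myeloid-rich libraries, 253 without those low in small RNAs, 22 with Pmel in place of Dct and 15 without the 2 libraries farthest from the median Dct, an alternative added after the data were seen. With each library left out that count was 7 to 143. Apart from these fewer genes or libraries, the cause was not tested.

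The genotype fits called 0 genes under every alternative run, with or without Dct. With each library left out, the genotype difference ranged from -2.58 to -1.35 for Dct, -2.53 to -1.33 for Tyrp1 and -2.49 to -1.19 for Pmel. Without Shb-inactivated 4, Dct was -2.53 and Tyrp1 -2.45, both past 0.05 by the exact permutation test. That library was the highest of its group in both genes, so passing 0.05 without it supports no difference. With the replicate number as a block over the 8 libraries that share one, limma called 0 genes without and with Dct (306 and 455 at an unadjusted p under 0.05), against 294 and 253 for the same 8 libraries without the block, which was added after the data were seen. Each of these counts is a smaller share of the tested genes than the 0.05 expected with no difference. Under the replicate block Dct was -1.64, Tyrp1 -1.66 and Pmel -1.27, with exact permutation p-values of 0.375, 0.375 and 0.625. These numbers are not pairs by the labels or the data. Library quality weights were run in the fit without Dct alone, where they called 0 genes. Since FPKM carries no depth, the precision of low genes cannot be given.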

Other observations

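B and plasma cell genes had a median difference of 0.09 between the rich and poor libraries, with 8 of 12 above 0, but without wild-type 1 the median was -0.21 with 2 of 12 above 0. Their summed level was 20.05, 28.27 and 29.29 FPKM in Shb-inactivated 3, 5 and 4 and was highest in wild-type 1 (206.85 FPKM). Neutrophil markers summed to 1021.91 FPKM in wild-type 3 and to at most 29.16 FPKM in the other 9 libraries. Fibroblast genes summed to 27.50 FPKM in Shb-inactivated 3 and 535.26 FPKM in Shb-inactivated 6, both melanoma-poor, and 59.01 to 429.87 FPKM in the rich libraries.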
